A study of Mus musculus with 6 samples.

Results

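The lymphocyte markers described here are 9 genes matched by symbol: the shared markers Cd52 and Coro1a, the T cell markers Cd3e, Cd3g, Cd8b1 and Cd4, and the B cell markers Cd79a, Cd79b and Ms4a1. They were chosen with earlier results of these data known. Through the platform annotation 8 of the 9 matched a probe, with 17 probes in all, out of 19053 named genes and 45281 probes; Cd79a was not analysed here. RNA of thoracic aorta from male C57Bl/6 mice aged 3 to 4 months was read on 6 Illumina bead arrays, 1 array per sample. The 3 samples labelled NDST came from SM22αCre+Ndst-/- mice, in which Cre driven by the smooth muscle promoter SM22α deletes Ndst1, a sulfotransferase of heparan sulfate synthesis. The 3 samples labelled WT came from SM22αCre-Ndstwt/wt mice, so WT carries no Cre at all. The promoter aims the deletion at smooth muscle, and whether other cells lost Ndst1 was not tested. Per its title the series concerns arterial elasticity. Whether each sample is a different mouse is not given in the labels; the p-values then cover the spread among these 6 samples alone, which may be technical.

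A T cell carries an antigen receptor that cannot signal by itself and passes its signal through the CD3 chains, while CD4 or CD8 grips the MHC molecule that presents the antigen. A B cell likewise signals through the pair CD79A and CD79B beside its membrane antibody, and displays CD20, the product of Ms4a1, at its surface. CD52 is a short, heavily glycosylated surface peptide, and coronin 1A binds actin in cells of the blood lineage; both are abundant in lymphocytes and are also made by other leukocytes. The healthy mouse aorta holds few lymphocytes, mostly in the adventitia and the surrounding fat, so in RNA of the whole vessel their transcripts are diluted by those of smooth muscle, fibroblasts and fat cells.

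Sequence upstream of 2 members is shown because 1 of them, Coro1a, was among the genes whose probes passed the test and the other, Cd3g, was not. Each window holds the 200 bases before the outermost RefSeq start of the gene (GRCm38.p6, minus strand, written 5′ to 3′), at chr7:126704817-126705016 for Coro1a and chr9:44980432-44980631 for Cd3g. Capitals mark matches to the short letters of motifs associated with blood cell factors.
Coro1a: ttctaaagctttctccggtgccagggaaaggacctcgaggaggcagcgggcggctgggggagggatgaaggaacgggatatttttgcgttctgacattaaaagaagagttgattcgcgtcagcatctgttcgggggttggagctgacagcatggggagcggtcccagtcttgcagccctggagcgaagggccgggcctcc
Cd3g: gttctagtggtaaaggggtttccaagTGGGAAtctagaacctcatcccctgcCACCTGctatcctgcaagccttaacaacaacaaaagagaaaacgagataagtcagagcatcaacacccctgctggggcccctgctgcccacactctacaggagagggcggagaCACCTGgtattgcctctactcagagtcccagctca
The letters searched on both strands were AGGAAG (ETS), ATGCAAAT (octamer), CAGGTG (E-box), TGGGAA (Ikaros) and TGTGGT (RUNX). Of 32851 RefSeq windows of the same length, 24.7%, 1.38%, 13.9%, 17.3% and 11.2% hold these letters, in that order. The Cd3g window has the Ikaros letters 174 bases before the start and the E-box letters at 148 and 35 bases before it, while none of the 5 motifs is in the Coro1a window. RefSeq lists a further start inside Coro1a, and windows for Cd3e and Cd79a that are not shown.

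Each array reads a probe as the brightness of its beads and gives a detection p-value for brightness above that array's background; a probe is called detected here where that p is under 0.05. Intensities were background-corrected, quantile-normalized and put on a log2 scale, and the 17954 probes detected on at least 3 of the 6 arrays were tested with limma, with p adjusted over all of them. Across the arrays 18063 to 18619 probes were detected in NDST and 17549 to 18131 in WT, and the median intensity before normalization was 133.9 to 141.5 in NDST and 130.0 to 135.9 in WT. All 10 smooth muscle markers listed for the tissue check were tested (median difference 0.01 in log2, range -0.31 to 0.31), and Lmod1 passed as lower in NDST. All 11 tested cardiac muscle genes passed as higher in NDST (median 3.33). What tissue each sample held was not tested. In bulk RNA, fewer cells of a type and less RNA per cell cannot be told apart.

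The shared markers Cd52 and Coro1a were higher in NDST aortas, by 1.31- to 1.43-fold at the 3 probes that passed the test. No probe of the T cell markers Cd3e, Cd3g and Cd8b1 or of the B cell marker Cd79b passed. A call at some probes and not at others does not show that the markers differ from each other. Cd4 and Ms4a1 were detected on too few arrays for a test. Of the 17 marker probes 14 were tested, each detected on at least 5 arrays, and 3 of these passed, all higher in NDST. The difference was above 0 for 13 of the 14. By the probe of highest mean it was above 0 for 5 of the 6 tested genes, beside 5142 of all 10076 genes. Over all tested probes 7.44% passed in either direction, 4.32% higher and 3.12% lower in NDST. All 3 NDST values lay above all 3 WT values for 7 of the 14 probes, against 16.1% of all tested probes. For none did they lie below, against 16.3%. Probes of the same gene are not independent, and the 3 that passed belong to 2 genes. At the probe of highest mean, 2 of the 6 tested genes passed, against 7.35% of all genes. The same count, 2 of 6, had every NDST value above every WT value, against 18% of all genes. The median difference of the 14 probes was 0.24 in log2 (NDST minus WT), beside -0.0070 over all tested probes. Because the markers were chosen with earlier results of these data known, these counts and shares only describe the set.

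**Figure D1:**
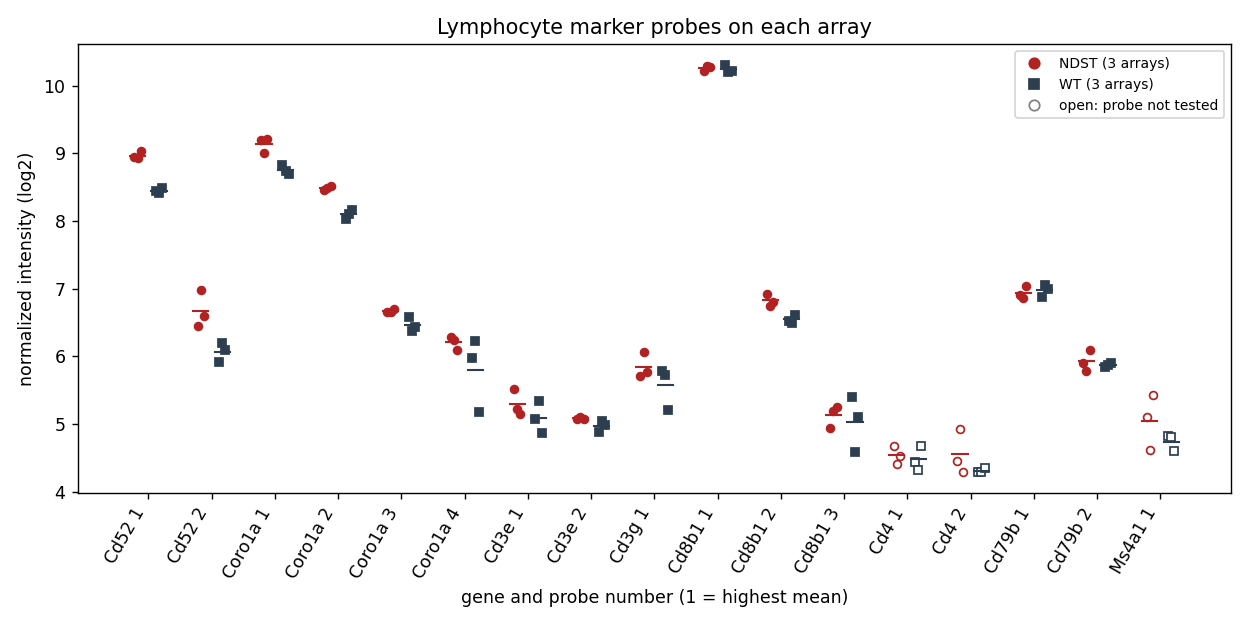
Normalized intensity (log2) of each of the 17 marker probes on each array, with NDST arrays as circles left of WT arrays as squares, short bars at the mean of 3 arrays, and open symbols for the 3 probes that were not tested; probes of a gene are numbered from the highest mean. Both groups stand apart for Cd52 1 and 2, Coro1a 1, 2 and 3, Cd3e 2 and Cd8b1 2. They overlap for the other tested probes, among them both of Cd79b.

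Cd52 showed the clearest difference. Its probe with the higher mean (ILMN_2910934) read 617, 628.5 and 663.9 intensity units before normalization in NDST aortas, against 432.7, 438.7 and 456.1 in WT aortas. After normalization the log2 values were 8.94, 8.93 and 9.03 in NDST and 8.44, 8.41 and 8.49 in WT. Every NDST array was above every WT array on both scales, and the spread within a genotype was small beside the gap. The difference was 0.52 ± 0.07 (log2, standard error, n = 3 arrays per genotype; limma adjusted p = 0.0109), or 1.43-fold, and 2.97% of all tested probes had a higher one. With any single array left out this probe still passed (adjusted p between 0.0354 and 0.0466).

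The other Cd52 probe (ILMN_2771380) had log2 values of 6.45, 6.98 and 6.60 in NDST aortas and 5.92, 6.20 and 6.10 in WT aortas. The groups did not overlap here either, but NDST replicate 2 stood above the other two NDST arrays. Its difference, 0.61 ± 0.15, was of similar size with a wider error and missed the threshold (limma adjusted p = 0.0566).

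Coro1a, the actin-binding coronin of blood cells, was measured by 4 probes, of which 2 passed. The first (ILMN_2714796) had log2 values of 9.20, 9.0 and 9.21 in NDST aortas and 8.82, 8.74 and 8.70 in WT aortas. Its difference was 0.38 ± 0.09 (limma adjusted p = 0.0468), or 1.31-fold, with no overlap between the groups. The second (ILMN_2787257) had values of 8.46, 8.49 and 8.52 in NDST and 8.03, 8.10 and 8.16 in WT. It differed by 0.39 ± 0.07 (limma adjusted p = 0.0267), also 1.31-fold and without overlap. Both called probes missed the threshold whichever single array of either genotype was left out, with adjusted p between 0.0630 and 0.127 for the first and between 0.0591 and 0.0850 for the second.

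The dimmer Coro1a probes did not pass. ILMN_2733793 stood at 6.65, 6.65 and 6.70 in NDST aortas and 6.59, 6.38 and 6.44 in WT aortas, a difference of 0.20 ± 0.08 (limma adjusted p = 0.186) without overlap. ILMN_2747060 stood at 6.29, 6.25 and 6.09 in NDST and 5.98, 6.23 and 5.18 in WT. WT replicate 3 was far below the other arrays there, WT replicate 2 lay within the NDST values, and the difference of 0.41 ± 0.25 did not pass (limma adjusted p = 0.353).

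**Figure D2:**
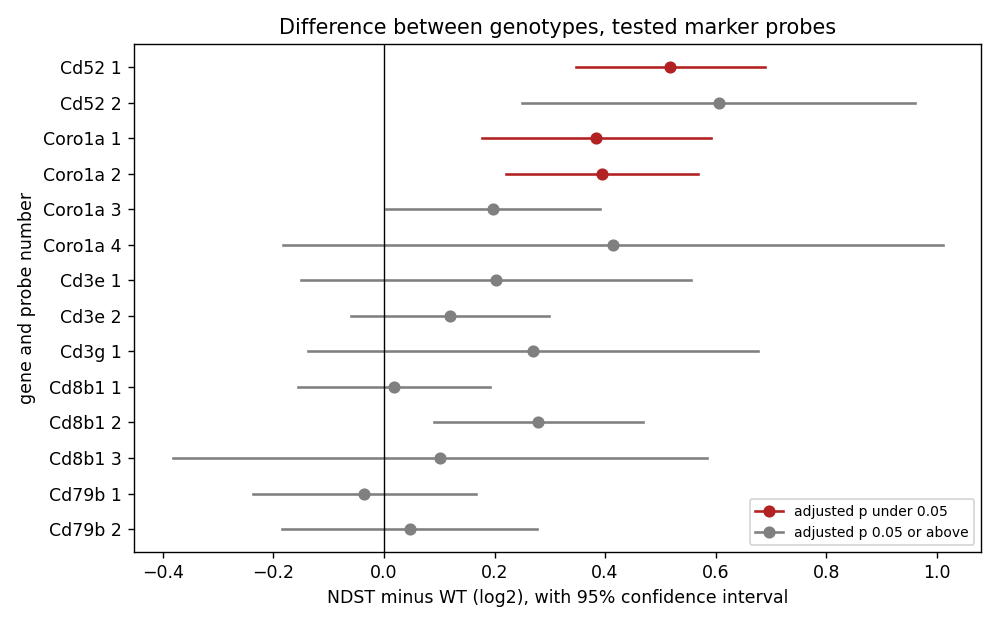
Difference NDST minus WT (log2) of the 14 tested marker probes as points, with 95% confidence intervals as lines; red marks the 3 probes with an adjusted p under 0.05. Cd52 1, Coro1a 1 and Coro1a 2 are red, and the intervals of both Cd79b probes include 0.

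The CD3 chains were measured near the detection limit. Cd3e, the epsilon chain, had log2 values of 5.52, 5.23 and 5.15 in NDST aortas and 5.07, 5.34 and 4.87 in WT aortas at its first probe (ILMN_2784580), which was detected on 3 NDST and 2 WT arrays. The groups overlapped, and the difference of 0.20 ± 0.15 did not pass (95% interval -0.15 to 0.56, limma adjusted p = 0.442). Its second probe (ILMN_1238847) had 5.08, 5.11 and 5.08 in NDST and 4.89, 5.05 and 4.99 in WT, again detected on 3 NDST and 2 WT arrays. Here every NDST value was higher than every WT value, but by little (0.12 ± 0.08, 95% interval -0.06 to 0.30, limma adjusted p = 0.373).

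Cd3g, the gamma chain, was detected on all 6 arrays, with log2 values of 5.71, 6.06 and 5.77 in NDST aortas and 5.79, 5.72 and 5.21 in WT aortas. WT replicate 3 was the lowest array and WT replicate 1 lay above 2 of the NDST arrays. The difference was 0.27 ± 0.17 (95% interval -0.14 to 0.68, limma adjusted p = 0.373). These intervals include 0 and also include differences as large as 0.52, the one measured for Cd52, so at this number of arrays neither can be told from the other for Cd3g and for the first Cd3e probe.

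Cd8b1, the beta chain of the CD8 coreceptor of cytotoxic T cells, had 3 probes that differed from each other. The brightest (ILMN_1257694) stood at 10.22, 10.29 and 10.28 in NDST aortas and 10.31, 10.20 and 10.22 in WT aortas. Its groups overlapped, with a difference of 0.02 ± 0.07 (95% interval -0.16 to 0.19, limma adjusted p = 0.906) that turned negative, at -0.046, in the authors' processed values. The second (ILMN_2741169) stood at 6.92, 6.75 and 6.81 in NDST and 6.53, 6.50 and 6.61 in WT. All NDST arrays were higher there, yet the difference of 0.28 ± 0.08 missed the threshold (limma adjusted p = 0.0816). The third (ILMN_2664929), detected on 3 NDST and 2 WT arrays, had values of 4.94, 5.20 and 5.25 in NDST and 5.40, 4.59 and 5.10 in WT. WT held both the highest and the lowest array, and the difference was 0.10 ± 0.20 (limma adjusted p = 0.797). Neither probe of Cd8a, the alpha chain with which the CD8 beta chain pairs, was detected on any array.

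Cd4, the coreceptor of helper T cells, was not well above background. Its first probe (ILMN_1249663) was detected on no array, with log2 values of 4.68, 4.42 and 4.53 in NDST aortas and 4.44, 4.32 and 4.68 in WT aortas. Its second (ILMN_1217214) was detected on NDST replicate 2 alone, with values of 4.46, 4.93 and 4.29 in NDST and 4.29, 4.29 and 4.35 in WT. No fold is given for either, and neither was tested.

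Of the B cell members, Cd79b, a signalling chain of the B cell receptor, was detected on all 6 arrays by both probes. The first (ILMN_2610822) stood at 6.91, 6.87 and 7.04 in NDST aortas and 6.88, 7.05 and 7.00 in WT aortas. The groups overlapped almost fully, with a difference of -0.04 ± 0.09 (95% interval -0.24 to 0.17, limma adjusted p = 0.830), which turned positive when arrays were scaled by their medians (0.10) or left unnormalized (0.15). The second (ILMN_2661523) stood at 5.91, 5.78 and 6.10 in NDST and 5.85, 5.88 and 5.90 in WT, a difference of 0.05 ± 0.10 (95% interval -0.18 to 0.28, limma adjusted p = 0.802). The upper bound of either interval, 0.17 and 0.28, lies below the lower bound of 0.35 measured for the first Cd52 probe. This does not hold for the other shared marker probes. The bound of 0.28 lies above the lower bounds of the second Cd52 probe (0.25) and of every Coro1a probe (0.18, 0.22, 0.0037 and -0.18).

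Ms4a1, which encodes CD20, was detected on 2 of 3 NDST arrays and on no WT array. Its log2 values were 5.10, 4.62 and 5.43 in NDST aortas and 4.82, 4.81 and 4.60 in WT aortas, so that NDST replicates 1 and 3 were above every WT array and NDST replicate 2 was not. Because neither WT nor NDST replicate 2 was well above background, no fold or bound is given. The probe was too seldom detected to be tested; with all probes on the array tested, its difference was 0.31 ± 0.19 (limma adjusted p = 0.565).

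**Figure D3:**
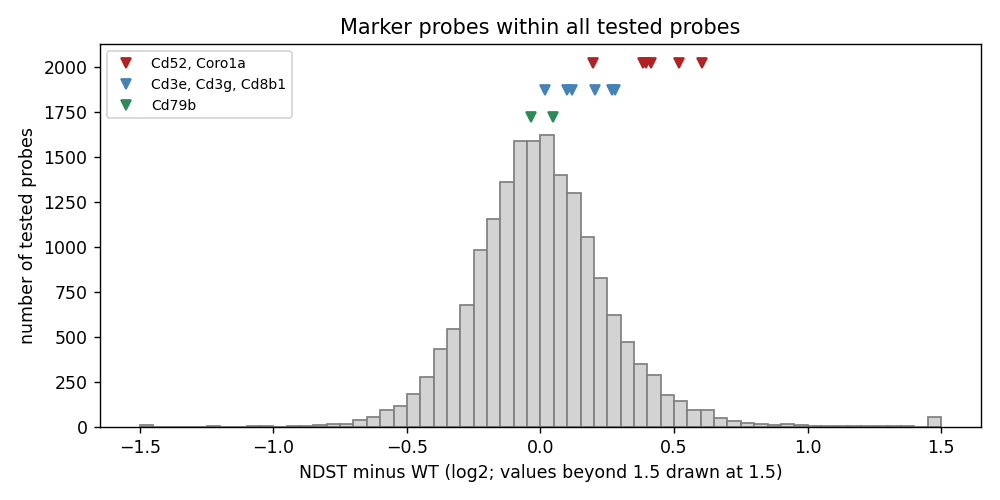
Histogram of the difference NDST minus WT (log2) over all 17954 tested probes, with triangles for the probes of the shared markers (red), the T cell markers (blue) and Cd79b (green); the height of the triangles has no meaning. The 6 red triangles run from 0.20 to 0.61 and the blue ones from 0.02 to 0.28. The 2 green ones lie at -0.04 and 0.05, near the peak of the histogram.

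Differences taken within each array do not depend on scaling between arrays by a constant. The log2 value of the first Cd52 probe minus that of the first Cd79b probe was 2.03, 2.06 and 1.99 in NDST aortas and 1.56, 1.36 and 1.50 in WT aortas. Cd52 thus stood higher relative to Cd79b on every NDST array than on any WT array, by 0.55 on average. The same held for Coro1a relative to Cd79b (2.28, 2.14 and 2.18 in NDST, 1.95, 1.69 and 1.70 in WT) and for Cd52 relative to the brightest Cd8b1 probe (-1.28, -1.37 and -1.25 in NDST, -1.87, -1.79 and -1.73 in WT). Each of these 3 gave an exact permutation p = 0.10 (two-sided, 0.13 after Benjamini-Hochberg adjustment over 4 pairs), the smallest that 3 against 3 arrays allow, so none can pass the threshold. The first Cd79b and Cd8b1 probes themselves differed by -0.04 and 0.02, so these comparisons largely repeat the Cd52 and Coro1a differences. Other Cd8b1 probes (0.28 and 0.10) were not used as reference. They were much dimmer, with NDST means of 6.83 and 5.13 against 10.26 at the brightest. Whether the brightest probe reads Cd8b1 of T cells was not tested. Cd52 relative to Coro1a overlapped between the genotypes (-0.25, -0.08 and -0.18 in NDST, -0.38, -0.33 and -0.20 in WT; exact permutation p = 0.20).

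The samples of a genotype did not fall in a fixed order across the markers. Of the 14 tested probes NDST replicate 3 was the highest NDST array for 7 and the lowest for 2, and NDST replicate 1 was the highest for 3 and the lowest for 7. Among WT arrays each replicate was the highest for 4 or 5 probes and the lowest for 4 or 5. The 5 genes outside the markers whose values over the 6 arrays ran most like the mean standardised profile of the 6 tested marker genes were Alkbh8 (Pearson r = 0.992), Notch1 (0.988), Trps1 (0.987), Uvrag (0.986) and Wdr20 (0.986). The 6 arrays share the genotype contrast, and these genes were picked from all 10076 tested, so the values only describe likeness.

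Few other T cell genes could be measured. Of 33 listed genes 27 had a named probe and 8 were tested, while 12 were detected on no array, among them Cd5, Cd28, Lat, Gata3 and Tbx21. Of the 8 tested 2 passed, but both met the detection filter through the NDST arrays alone, so they had to differ to be tested and are given as values only; over all genes 7.35% passed in either direction (4.61% higher, 2.74% lower), and all NDST arrays lay above all WT arrays for 18%. None of the 4 T cell genes detected on all 6 arrays passed. Cd247, the zeta chain of the T cell receptor complex, had log2 values of 5.01, 5.05 and 5.12 in NDST aortas and 4.59, 4.72 and 4.40 in WT aortas. It was detected on all NDST arrays and on no WT array, and its NDST mean was at least 1.06-fold higher than the WT limit. Bcl11b, a transcription factor of T cell commitment, had 5.36, 5.32 and 5.34 in NDST and 5.04, 4.53 and 4.48 in WT, where it was detected on 1 array. Cd3d, the delta chain that sits beside CD3 epsilon in the receptor, stood at 0.19 ± 0.09 (adjusted p = 0.255) and Cd27 at 0.19 ± 0.26 (adjusted p = 0.689).

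No other B cell gene passed with the values as reported, but 2 did under 6 of the other settings, among them the test of probes detected on all 6 arrays, where no T cell gene passed. Of 28 listed genes 24 had a named probe and 15 were tested, with a median of 0.02 and 8 of them above 0. Those with the smallest p were Fcmr, the receptor for IgM, at 0.50 ± 0.12 (limma adjusted p = 0.0559), Cd72, an inhibitory coreceptor, at 0.48 ± 0.13 (adjusted p = 0.0727), the kinase Btk at 0.39 ± 0.18 (adjusted p = 0.235), and the coactivator Pou2af1 at -0.27 ± 0.14 (adjusted p = 0.287). Fcmr read 6.93, 7.05 and 7.26 in NDST aortas and 6.40, 6.73 and 6.61 in WT aortas, without overlap, and Cd72 read 5.88, 6.23 and 6.39 in NDST and 5.70, 5.68 and 5.66 in WT, also without overlap. Each of these 2 genes passed in 7 of 16 alternatives. Pax5, which maintains B cell identity, Cd22 and Cr2 were each detected on at most 1 array. Of 5 tested plasma cell genes 1 rose, Xbp1 (0.36 ± 0.08, limma adjusted p = 0.0449), which many secretory cells make. Irf4 stood at -0.41 ± 0.10 (adjusted p = 0.0593), Sdc1 at 0.33 ± 0.20 (adjusted p = 0.342) and Mzb1 at 0.10 ± 0.13 (adjusted p = 0.685). Jchain, the joining chain of secreted antibody, was detected on no array.

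Of 5 tested NK and cytotoxic genes 2 rose (median 0.38): the chemokine Ccl5 (0.78 ± 0.12, limma adjusted p = 0.0141), with 7.04, 6.74 and 7.13 in NDST aortas and 6.11, 6.18 and 6.28 in WT aortas, and perforin, Prf1 (0.57 ± 0.10, adjusted p = 0.0216), with 8.44, 8.38 and 8.21 in NDST and 7.76, 7.89 and 7.66 in WT. Ctsw (0.38 ± 0.20) and Nkg7 (0.19 ± 0.17) did not pass, and Gzmb, Ncr1 and Klrk1 were detected on no array. Of 19 tested pan-leukocyte genes 2 rose and none fell, against 7.35% of all genes called in either direction and 4.61% higher, so the share called was not far from that of all genes. The median was 0.20, and 17 of the 19 were above 0, beside 5142 of all 10076 genes. For 7 of them every NDST value lay above every WT value, against 18% of all genes. The 2 that rose were Arhgap30 (0.46 ± 0.08, limma adjusted p = 0.0254), and Lcp1, an actin-bundling protein (0.40 ± 0.08, adjusted p = 0.0363). Arhgdib (0.31 ± 0.08, adjusted p = 0.0579) and Cd53 (0.35 ± 0.10, adjusted p = 0.0789) missed the threshold. Ptprc, which encodes CD45, the common leukocyte surface phosphatase, stood at 0.15 ± 0.19, detected on 2 NDST arrays and 1 WT array. Ptprc was picked out with its values known. Ccl5 passed with 3 of the 6 single arrays left out, Prf1 with 2, and Arhgap30, Lcp1 and Xbp1 with none.

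**Figure D4:**
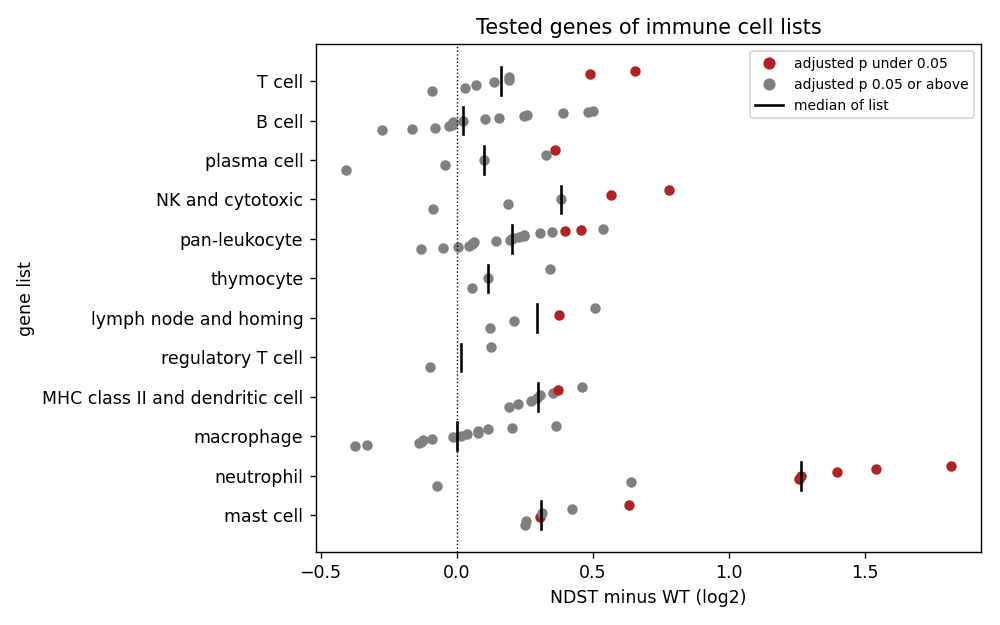
Difference NDST minus WT (log2) of the tested genes of 12 immune cell lists that exclude the markers themselves, with red for an adjusted p under 0.05 and a black bar at the median of each list. The T cell list has 2 red points, both of genes that met the detection filter through NDST alone. The B cell list has none, though it has 2 calls and the T cell list 0 when probes detected on all 6 arrays are tested. The neutrophil list has 5, between 1.26 and 1.82, of which 2 met the filter through NDST alone.

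Markers of other immune cells moved in the same arrays in which Cd52 and Coro1a were higher. All 3 neutrophil genes detected on all 6 arrays rose, among them S100a8, a calcium-binding protein of neutrophils, at 1.40 ± 0.08 (limma adjusted p = 0.000137), and S100a9 at 1.26 ± 0.09. The granule genes Camp and Ngp met the filter through NDST alone, were detected on no WT array, and had NDST means at least 2.70-fold and at least 1.97-fold above the WT limit. Summed over the 7 tested genes of the list, 6 of them above 0, normalized intensity less the offset was 1349.7 to 1358 in NDST aortas and 471 to 493 in WT aortas. That sum includes 3 genes that met the filter through NDST alone, so part of the gap was fixed by the choice of genes. Of 8 tested genes of MHC class II and dendritic cells H2-Ab1 rose at 1 probe (0.37 ± 0.07, limma adjusted p = 0.0331). Its other tested probes did not pass (0.31 ± 0.07, adjusted p = 0.0508, and 0.23 ± 0.12, adjusted p = 0.279). All 8 genes were above 0, beside 5142 of all 10076 genes. Cd74 (0.23 ± 0.07), H2-Aa (0.46 ± 0.15) and H2-DMa (0.31 ± 0.11) did not pass, and Itgax and Flt3 were detected on no array. The summed level of the list was 5667 to 5714 in NDST and 4635 to 4706 in WT. Of 6 tested mast cell genes Kit, the stem cell factor receptor, rose at 1 probe (0.63 ± 0.08, adjusted p = 0.00716) but not at another (-0.03 ± 0.13, adjusted p = 0.899), and Tpsb2 rose, with sums of 948 to 1046 in NDST and 706 to 749.8 in WT. None of 14 tested macrophage genes passed (median 0.0014), and their sums overlapped, at 11345.8 to 12525.5 in NDST and 11324 to 11730.0 in WT. With any single array left out S100a8, S100a9 and the first Kit probe still passed, whereas H2-Ab1, Tpsb2 and Ccl21a did not pass with any left out. The part of these cells in the Cd52 and Coro1a differences was not tested.

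The same sum was taken over the lymphoid lists. For the T cell list it was 781 to 891 in NDST aortas and 724 to 839.7 in WT aortas, which overlap, but most of it was Thy1, a surface glycoprotein that fibroblasts and neurons also carry (620.1 to 702 in NDST, 598 to 707 in WT). Without Thy1, left out after its values were seen, the other 7 genes summed to 152 to 189 in NDST and 126 to 136 in WT. Those ranges do not overlap, but 2 of the 7 genes, Cd247 and Bcl11b, met the detection filter through NDST alone. They had to differ to be included, so no conclusion is drawn from the gap. The B cell sums were 772 to 815 in NDST and 679 to 754 in WT, without overlap. They include 1 gene, Bcl11a, that met the filter through NDST alone, so part of that gap was fixed by the choice of genes. For NK and cytotoxic genes they were 502 to 533 in NDST and 335 to 351 in WT, without overlap. Pan-leukocyte sums were 3208 to 3366 in NDST and 2715 to 2978 in WT, also without overlap. Here 2 genes, Itgb7 and Itgal, met the filter through NDST alone, so the same limit holds. Each sum leans on its brightest gene. This was Ebf1 (difference -0.01 in log2) for B cells, Prf1 (0.57) for NK and cytotoxic genes, and Laptm5 (0.21) for pan-leukocyte genes. How often sums of other genes would separate was not tested.

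Of the genes of lymphoid organs few could be tested. Of 11 thymocyte genes with a probe 3 were tested and none passed, with Satb1, a chromatin organiser, at 0.34 ± 0.10 (limma adjusted p = 0.0805). The recombinase gene Rag2, the polymerase Dntt and the pre-T cell receptor chain Ptcra were detected on no array, and Rag1 on 2. Of 11 lymph node and homing genes with a probe 4 were tested and 1 rose, Ccl21a, a chemokine of lymphatic vessels and lymph nodes (0.38 ± 0.07, adjusted p = 0.0289), with 8.47, 8.36 and 8.46 in NDST aortas and 8.06, 8.02 and 8.08 in WT aortas. Cxcl13, which attracts B cells to follicles, stood at 0.51 ± 0.15 (adjusted p = 0.0839), detected on 3 NDST arrays and 1 WT array. Ccr7, the receptor for Ccl21a, and the vessel addressin genes Glycam1 and Madcam1 were detected on no array. Neither tested gene of regulatory T cells passed: Foxp3 stood at -0.10 ± 0.07 and Tnfrsf4 at 0.13 ± 0.16, while Ctla4 was detected on no array.

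None of the other coronins rose. Of 5 tested, Coro1b and Coro1c, the forms that most tissues make, stood at -0.13 ± 0.10 and 0.12 ± 0.11, Coro2b at -0.24 ± 0.13 and Coro6 at 0.26 ± 0.19 (95% interval -0.19 to 0.72), the last detected on 3 NDST arrays and 1 WT array. Coro2a met the filter through WT alone and was detected on no NDST array, with an NDST limit at least 1.12-fold lower than the WT mean. Whether these differences are unlike that of Coro1a was not tested. Of the relatives of Ms4a1, 2 of 11 with a probe were tested, the macrophage-associated Ms4a6d at -0.22 ± 0.11 and Ms4a7 at -0.02 ± 0.18, and neither passed. Ms4a4b, a relative made by T cells, was detected on no array.

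Outside the immune lists, all 11 tested cardiac muscle genes rose (median 3.33), each also with any single array left out. Of the 9 interferon-gamma response genes detected on all 6 arrays 7 rose, led by Igtp (1.53 ± 0.09, limma adjusted p = 0.000167). Igtp, Gbp3, Cxcl9 and Gbp2 passed with any single array left out, while Psmb8, Irf1 and Psmb9 were lost in at least 4 of the 6 such fits. A second probe of Gbp3 passed (1.18 ± 0.08, adjusted p = 0.000322) and 1 of Gbp2 did not (0.60 ± 0.20, adjusted p = 0.116). Of 10 adventitial fibroblast genes 6 rose (median 0.40), but with an array left out Pi16 alone kept passing and the other 5 passed with none. At second probes of these genes Lum passed (0.42 ± 0.09, limma adjusted p = 0.0454) and Gsn did not (0.08 ± 0.20, adjusted p = 0.833). Of 8 endothelial genes Vwf rose (median 0.20), of 10 smooth muscle genes Lmod1 fell, and of 4 red cell genes Slc4a1 fell (median -0.15); each of these 3 missed the threshold whichever array was left out. None of 7 fat cell genes passed (median -0.08).

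**Figure D5:**
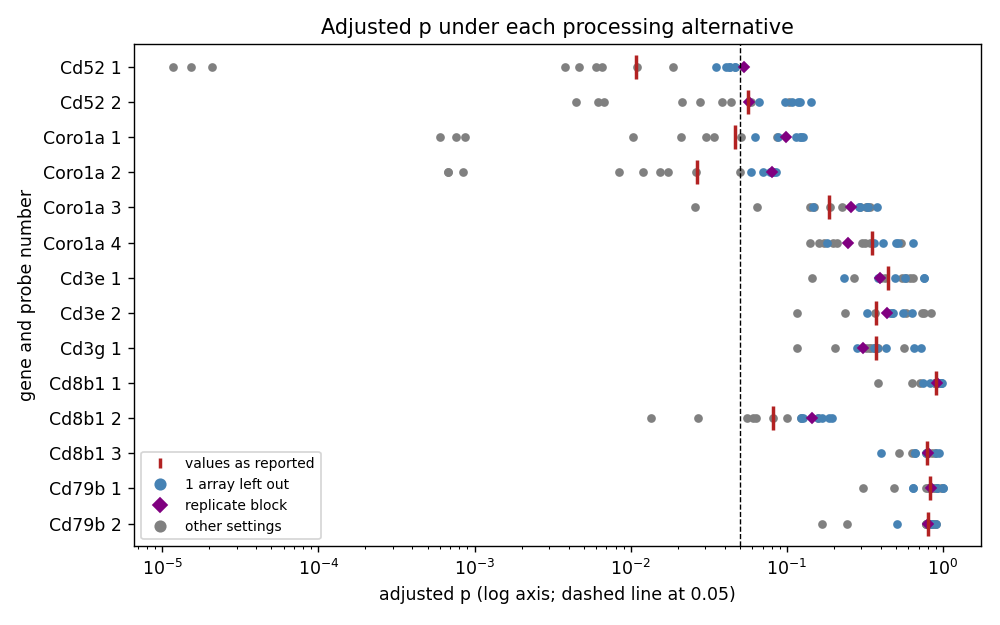
Adjusted p (log axis) of each tested marker probe with the values as reported (red bars), with 1 array left out (blue), with the replicate number as a block (purple) and under the other settings (grey); the dashed line is at 0.05. Cd52 1 has its blue points left of the line and its purple point at 0.0530, and both called Coro1a probes have their blue points right of it.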

How the data were processed

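Per the file headers, the non-normalized table as deposited gives each probe a linear intensity on each array, followed by its detection p-value. The submitters' processing notes name GenomeStudio; version and steps are not given in the sources used here. The authors' processed table, also linear intensity, is scaled in an unstated way and served as an alternative. Its column medians were 134.2 to 134.4 in NDST and 135.8 to 135.9 in WT.

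With limma 3.58.1 in R 4.3.3, neqc used the detection p-values to correct background, then added 16 as offset, quantile-normalized and took log2 of the deposited values. Dim probes' fold changes are understated. Probes detected (p under 0.05) on at least 3 of 6 arrays were fitted with lmFit and eBayes, two-sided, Benjamini-Hochberg over 17954 probes, threshold 0.05. Bounds set the brighter genotype's mean against, per array, the higher of the probe's value and the lowest detected signal. A gene outside the markers is given by its tested probe of highest mean. Genes detected on all arrays of 1 genotype and fewer than 2 of the other are said to meet the filter through that genotype alone. The platform annotation gave 34885 probes 1 gene, 18 several and 10378 none; 10 symbols were updated through RefSeq. Ndst1 was not analysed here.

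Named were every marker probe, up to 4 genes of smallest p in each of 21 lists (282 genes, 254 with a probe), and the 5 genes of most similar profile. Genes named as not detected, and Ptprc, Cd22, Cr2, Pax5, Rag1, Coro1c, Thy1, Ebf1, Laptm5, Psmb8, Irf1 and Psmb9, lie outside that rule. Their values were already known when they were picked. Markers and lists were chosen with earlier results of these data known. The fit was tested on simulated arrays. The number of arrays limits precision: the median within-genotype standard deviation was 0.13 in log2 over tested probes. Slide and scan are not given in the sources used here.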

Additional observations from a re-analysis of the deposited data

How the results depend on the processing

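Over 16 alternatives the 14 tested marker probes gave 220 values, of which 184 kept their direction and their side of the threshold, 18 lost it, 10 gained it and 8 changed sign. The 3 called probes passed in 30 of 48 cases. The number of called marker probes, 3 as reported, was 5 with median scaling, 6 without normalization between arrays, 1 without the detection filter, and 1 whichever single array was left out. With the replicate block it was 0 (Cd52 at adjusted p = 0.0530), and the called probes overall fell to 364 and the called list genes to 24. Same-numbered arrays deviated together with r of -0.01, 0.01 and 0.02, so the numbers were not taken to pair the samples; for replicates 2 and 3, but not 1, the best match had the same number. Over all probes, 1336 as reported, the count was 3048 without background correction, 2711 without normalization, 722 without the filter, 3493 with the authors' processed values, 3086 with a trended, robust variance and 404 to 532 with 1 array left out. Genes called over the 21 lists, 45 as reported, were 29 without the filter, 68 with the authors' values and 23 to 26 with 1 array left out. The share of called probes that were higher was 58.1% as reported, 82.9% with median scaling, 88.9% without normalization, where the median of all probes stood at 0.13, 50.5% without background correction, and 41.5% with the authors' values. Sign changes were limited to probes that never passed: the first Cd79b probe (0.10 with median scaling, 0.15 without normalization, 0.00066 without NDST replicate 2, 0.00089 without WT replicate 2, lowest -0.083 without WT replicate 1), the second (-0.038 to 0.12 over single arrays left out, negative without NDST replicate 3), the brightest Cd8b1 probe (-0.046 with the authors' values, -0.0051 without WT replicate 2) and the third (-0.12 without WT replicate 2, highest 0.29 without WT replicate 1). The cause was not tested. Signal near background limits Cd3e, Cd4, Ms4a1 and the third Cd8b1 probe.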
